A study of Mus musculus with 12 samples.

Results

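The peaks described here are those of the transcription factor FoxP3 at 3 other forkhead genes, Foxp1, Foxo1 and Foxo3. They were chosen by position in mm9: a peak counted where its summit lay on chromosome 6 from 98850000 to 99600000 (Foxp1), on chromosome 3 from 52030000 to 52200000 (Foxo1) or on chromosome 10 from 41860000 to 42040000 (Foxo3). Of 24765 regions in the whole series, 92 lay in these windows, with 78 at Foxp1, 10 at Foxo1 and 4 at Foxo3. A region is a stretch in which peaks of different libraries overlap by at least 1 bp. The nearest regions left out lay 5.56 kb beyond the Foxp1 window, with a fold of 11.4 in WT replicate 1 and no peak elsewhere, and 0.107 kb beyond the Foxo1 window, with folds of 10.1 in A384T replicate 1 and 9.41 in WT replicate 1. Just inside its edge, the last Foxp1 region began at 99596339 and had folds of 11.0, 12.6 and 13.8 in A384T replicates 1 and 2 and WT replicate 1. The last Foxo1 region lay well inside its window, which ends at 52200000. It began at 52144679 and had a fold of 8.10 in WT replicate 1.

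FoxP3 was immunoprecipitated from CD4+ Treg (regulatory T) cells of mice whose FoxP3 carries the substitution A384T (A384T) and of mice with unsubstituted FoxP3 (WT), to compare where the 2 proteins bind. All animals were C57BL/6J, and both lines carry a human CD2 (hCD2) reporter with FoxP3, by which untreated cells were sorted magnetically from lymph nodes and spleen. Each genotype had 3 ChIP libraries with a peak list and 3 inputs, which enter no comparison here. The labels give neither age nor sex and do not say whether replicates came from separate animals or pools, so p-values here reflect library-to-library spread, which may be technical. Peak lists hold no expression values, so the sorted cell type could not be checked against its markers.

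Forkhead factors share a winged-helix DNA-binding domain that recognises short motifs with the core TGTTTA. FoxP3 is the factor that defines Treg cells, and A384T lies in its forkhead domain and is known from human IPEX, an autoimmune disease of FoxP3 deficiency. Foxp1 belongs to the same FoxP subfamily, can form heterodimers with FoxP3 and helps to keep naive T cells quiescent. Foxo1 and Foxo3 belong to the FoxO subfamily, which Akt kinase keeps out of the nucleus when T cells are activated, and both promote Foxp3 expression and Treg differentiation.

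Sequence upstream of the annotated starts of the 3 genes is shown so that the forkhead motifs next to each gene start can be seen. Of each RefSeq promoter in GRCm38.p6 the 250 bases before the start are given, 5′ to 3′, on the strand of the gene. Capitals mark TGTTTA or its reverse complement TAAACA, a core chosen after the sequences had been seen. The 3 starts of Foxp1 are at chr6:99520994-99521243, chr6:99266516-99266765 and chr6:99028299-99028548, all on the minus strand. Foxo1 is at chr3:52268087-52268336 on the plus strand and Foxo3 at chr10:42276696-42276945 on the minus strand.
Foxp1 start 1: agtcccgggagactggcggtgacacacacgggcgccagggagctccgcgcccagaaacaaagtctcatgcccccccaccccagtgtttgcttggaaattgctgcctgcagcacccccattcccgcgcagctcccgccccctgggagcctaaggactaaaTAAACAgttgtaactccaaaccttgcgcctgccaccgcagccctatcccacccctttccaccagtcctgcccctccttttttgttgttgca
Foxp1 start 2: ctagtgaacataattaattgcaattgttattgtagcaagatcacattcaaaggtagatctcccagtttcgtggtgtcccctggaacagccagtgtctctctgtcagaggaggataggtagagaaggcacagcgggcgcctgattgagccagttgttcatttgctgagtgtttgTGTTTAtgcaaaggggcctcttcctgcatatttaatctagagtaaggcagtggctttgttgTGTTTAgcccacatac
Foxp1 start 3: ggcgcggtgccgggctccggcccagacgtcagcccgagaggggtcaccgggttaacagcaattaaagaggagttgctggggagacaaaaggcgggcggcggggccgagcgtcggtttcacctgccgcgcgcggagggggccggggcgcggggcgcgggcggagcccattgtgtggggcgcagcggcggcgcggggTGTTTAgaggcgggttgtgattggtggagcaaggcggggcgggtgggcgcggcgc
Foxo1: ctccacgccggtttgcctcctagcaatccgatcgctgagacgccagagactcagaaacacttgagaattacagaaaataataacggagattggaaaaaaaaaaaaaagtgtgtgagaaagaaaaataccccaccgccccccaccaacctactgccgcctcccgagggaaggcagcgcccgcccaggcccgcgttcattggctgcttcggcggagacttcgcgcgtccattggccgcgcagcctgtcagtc
Foxo3: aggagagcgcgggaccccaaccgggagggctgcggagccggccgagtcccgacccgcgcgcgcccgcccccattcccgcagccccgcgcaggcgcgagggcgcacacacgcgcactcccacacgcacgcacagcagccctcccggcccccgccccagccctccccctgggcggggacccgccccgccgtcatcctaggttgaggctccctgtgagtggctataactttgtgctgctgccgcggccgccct
The 3 Foxp1 stretches each held the core, beginning 91 bases before start 1 (as TAAACA), 77 and 16 bases before start 2 and 55 bases before start 3. The stretches of Foxo1 and Foxo3 held none, which says only that these letters are not in these windows. On either strand 12.0% of all 32851 promoter stretches of this length held TGTTTA. The longer motifs TGTTTAC, which contains that core, and TGTTGAC were in 3.17% and 2.07% of all stretches and in none of the 5 shown. The peaks are in mm9 and this table is not, so no peak was placed on these sequences. Exons, introns and UTRs under the peaks are likewise not given here.

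Depth and list length varied more between replicates than between genotypes. The lists held 18147, 6657 and 2050 peaks on the standard chromosomes in A384T replicates 1, 2 and 3 and 20723, 1746 and 3905 in WT replicates 1, 2 and 3, from 17520951 to 25386770 tags per library after removal of duplicates. Tags were 51 bp long in both replicate 1 libraries and 49 bp long in the other 4. Each list was called at a q-value cutoff against its own control, so a missing peak does not show that nothing was bound. Fold enrichment (ChIP over local control) and -log10 q are the authors' values for a peak and carry no scale shared between libraries.

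Foxp1 was one of the most densely bound stretches of the genome in these lists. The 750 kb window had 43, 36 and 12 peaks in A384T replicates 1, 2 and 3, against 77, 21 and 26 peaks in WT replicates 1, 2 and 3. With the chromosomes cut into 3526 consecutive tiles of 750 kb, a tile held a median of 3 regions, and 9 tiles (0.255%) held as many as the 78 of the Foxp1 window or more. The stretch of equal length before the window had at most 1 peak in any library and the stretch after it at most 3. Between the first region, at 98942749, and the last, ending at 99596712, the median gap was 2740 bp.

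A smaller share of the A384T lists than of the WT lists fell at Foxp1, a difference within the spread between replicates. Per 10000 listed peaks the window held 23.7, 54.1 and 58.5 in A384T replicates 1, 2 and 3, against 37.2, 120.3 and 66.6 in WT replicates 1, 2 and 3. A region called as more than 1 peak counts more than once in these shares. The 36 and 12 peaks of A384T replicates 2 and 3 lay in 32 and 11 regions. The 21 and 26 of WT replicates 2 and 3 lay in 19 and 24. The 2 genotypes overlapped, with WT replicate 1 below 2 A384T libraries. The means were 45.4 ± 18.96 in A384T and 74.7 ± 42.1 in WT (SD, n = 3 each), a difference of -29.2 (p = 0.4, exact permutation test, two-sided, where 0.1 is the lowest p 3 libraries against 3 can give). Left without WT replicate 2 the difference shrank to -6.43, without A384T replicate 1 to -18.4, and it was -48.0 when WT replicate 1 was left out. Within the 49 bp libraries the means were 56.3 in A384T and 93.4 in WT (n = 2 each), and the 51 bp libraries give 1 value per genotype. When each list was cut to as many peaks as the shortest holds, its best 1746 by -log10 q with ties ordered by fold and then position, Foxp1 had 8, 14 and 10 peaks in A384T replicates 1, 2 and 3 and 16, 21 and 14 in WT replicates 1, 2 and 3. The difference in these equal lists was -36.3 per 10000 peaks (two-sided exact permutation test, p = 0.2). A Foxp1 peak of A384T replicate 2 was tied in -log10 q at the limit, and with all tied peaks kept that library had 15, more than the 14 of WT replicate 3, so that the genotypes overlapped. The same comparison was made for Foxo1 and Foxo3 below, so 3 loci were tested. After Benjamini-Hochberg correction the permutation p-values of the full lists were 0.6, 0.9 and 0.6 for Foxp1, Foxo1 and Foxo3.

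**Figure D1:**
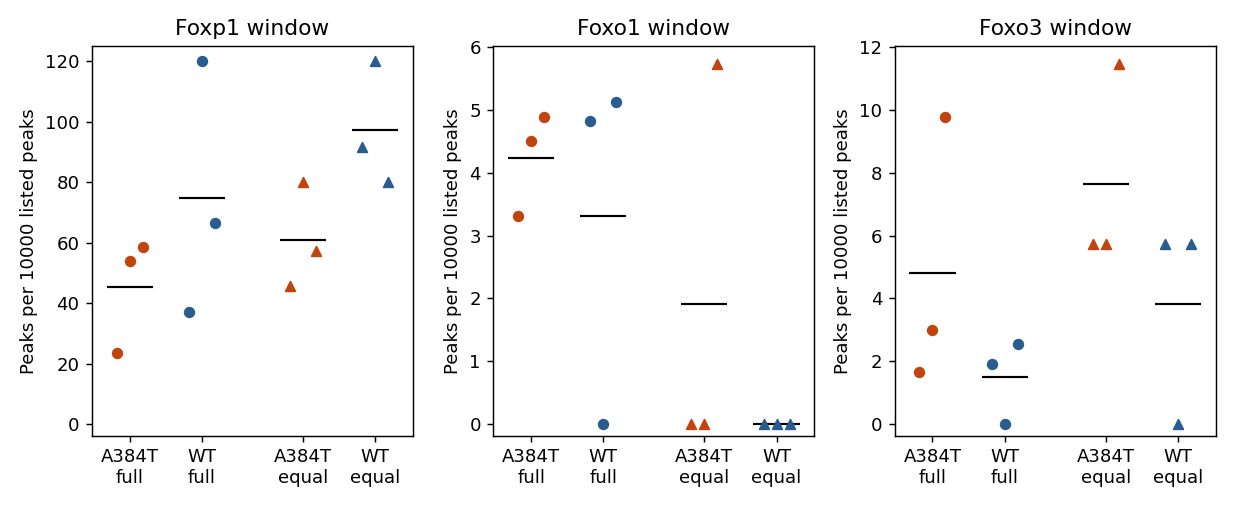
Peaks per 10000 listed peaks in the Foxp1, Foxo1 and Foxo3 windows for each library (points) with the mean of each genotype (lines), in full lists (circles) and in lists reduced to the 1746 strongest peaks (triangles). At Foxp1 the A384T points of the full lists lie between 23.7 and 58.5 and the WT points between 37.2 and 120.3, so the genotypes overlap.

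The Foxp1 regions lay in 3 stretches separated by gaps of over 50 kb, a division made after the positions were seen. The first stretch, from 98942749 to 99047454, held 14 regions, of which A384T replicates 1, 2 and 3 listed 12, 9 and 5 and WT replicates 1, 2 and 3 listed 14, 8 and 8. The second, from 99121394 to 99492993, held 60 regions, with 29, 22 and 6 listed in A384T replicates 1, 2 and 3 and 59, 11 and 16 in WT replicates 1, 2 and 3. The third, from 99593472 to 99596712, held 4 regions, with 2, 1 and 0 listed in A384T replicates 1, 2 and 3 and 4, 0 and 0 in WT replicates 1, 2 and 3. Whether this last stretch lies in Foxp1 or nearer the next gene cannot be told from these files. In the GRCm38.p6 gene table the neighbouring protein-coding genes of Foxp1 are Gm765 and Eif4e3. Regions listed in all 6 libraries numbered 5 in the first stretch, 5 in the second and 0 in the third.

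**Figure D2:**
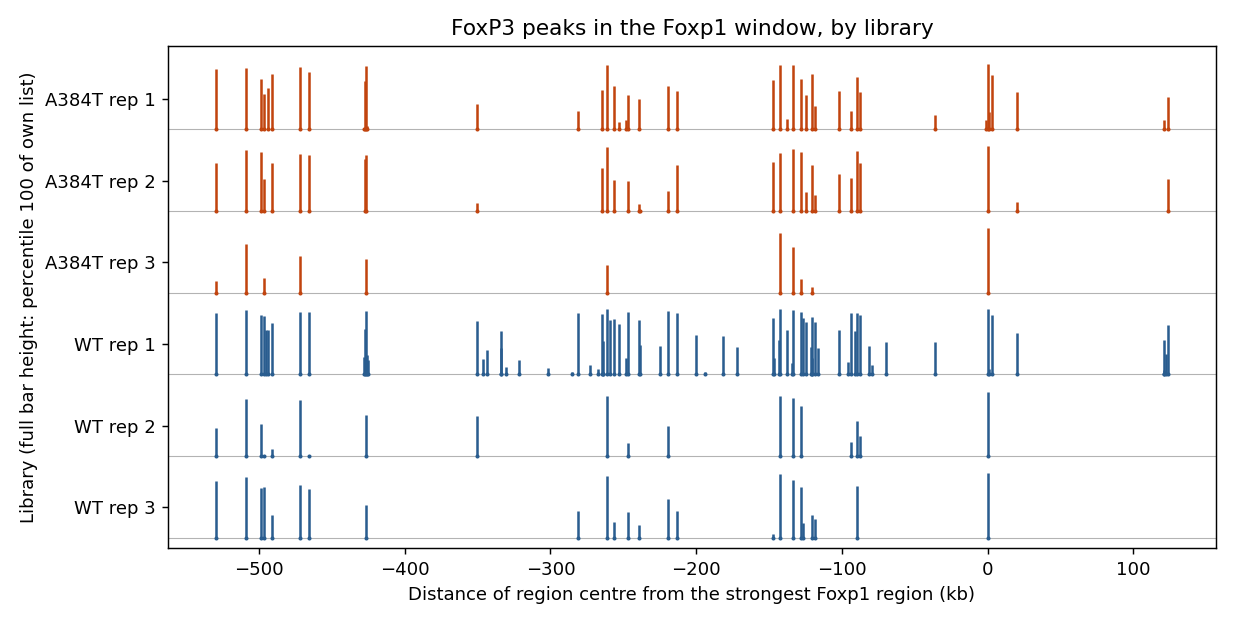
Each bar is a region of the Foxp1 window with a peak in that library, placed by the distance of its centre from the strongest region (kb). Bar height is the percentile of the peak by -log10 q within its own list, from 0 to 100. All 6 libraries have a tall bar at 0 kb, and WT replicate 1 has the most bars, 77, where A384T replicate 3 has 11.

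The strongest Foxp1 region, chromosome 6 from 99472165 to 99473290, was among the strongest FoxP3 peaks of every library. By -log10 q it stood in place 6 of 18147, 30 of 6657 and 13 of 2050 in A384T replicates 1, 2 and 3, and in place 21 of 20723, 42 of 1746 and 41 of 3905 in WT replicates 1, 2 and 3. Its fold enrichment was 57.1, 37.5 and 38.8 in A384T replicates 1, 2 and 3 and 50.6, 19.96 and 25.6 in WT replicates 1, 2 and 3. The 6 summits lay within 29 bp of each other. It lay in the second stretch.

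In all, 10 of the 78 Foxp1 regions (12.8%) had a peak in all 6 libraries, where 3.88% of regions in the whole series did. Their summits lay within a median of 51 bp (29 to 293 bp), close to the 53 bp of all 962 such regions. Their median width was 775 bp, against 586 bp for the 962. The region from 99210469 to 99212068, 1600 bp wide, had folds of 41.0, 33.8 and 7.34 in A384T replicates 1, 2 and 3 and 64.1, 15.9 and 19.7 in WT replicates 1, 2 and 3. It was called as 1 peak in A384T replicates 1 and 2 and WT replicate 1, and as 2 peaks in the other 3 libraries. The region from 99329857 to 99330602 had folds of 45.6, 14.1 and 17.9 in A384T replicates 1, 2 and 3 and 47.4, 18.1 and 36.3 in WT replicates 1, 2 and 3. The region from 99338726 to 99339647 had folds of 46.2, 25.8 and 12.2 in A384T replicates 1, 2 and 3 and 39.1, 19.7 and 16.97 in WT replicates 1, 2 and 3. In these 3 regions replicate 1 had the highest fold of each genotype. The region of the 10 with the lowest mean percentile, from 98976038 to 98976570, had folds of 12.6, 13.9 and 8.55 in A384T replicates 1, 2 and 3 and 23.1, 6.18 and 16.2 in WT replicates 1, 2 and 3. The other 5 began at 98942749, 98963359, 99000321, 99046049 and 99344447, with folds of 6.91 to 41.5.

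The order of these 10 regions was compared between genotypes by ranking each library within the same 962 regions, so that each library ranks equally many. Which regions have a peak in all 6 libraries still depends on the lengths of the lists, the shortest above all. Ranks are percentiles, with 100 for the strongest of the 962. The mean rank was higher in A384T for 2 of the 10 regions and higher in WT for 8. How the 962 regions divide in this way was not counted, so these numbers alone show no shift at Foxp1. For 1 of 10 the ranks of the genotypes did not overlap, where 24.8% of the 962 regions had ranks that did not overlap, in 11.5% with A384T higher and in 13.3% with WT higher. That region, from 98963359 to 98963837, stood at 52.8, 65.9 and 61.1 in A384T replicates 1, 2 and 3 and at 67.4, 78.0 and 74.7 in WT replicates 1, 2 and 3, a mean of 59.9 ± 6.65 in A384T and 73.4 ± 5.41 in WT (SD, n = 3 each). Its folds were 28.9, 24.1 and 12.6 in A384T replicates 1, 2 and 3 and 41.5, 17.999 and 23.7 in WT replicates 1, 2 and 3. The strongest region stood at 99.6, 97.3 and 99.0 in A384T replicates 1, 2 and 3 and at 97.9, 95.7 and 95.9 in WT replicates 1, 2 and 3. Ranked by fold instead, the ranks of 3 of the 10 regions did not overlap, against 16.0% of the 962. Of these the strongest region ranked higher in A384T, as did 7.69% of the 962, and the regions starting at 98963359 and 99344447 ranked higher in WT, as did 8.32%. With the peaks ranked inside lists of equal length, 7 Foxp1 regions were in all 6 lists and 3 did not overlap, against 25.8% of 500 regions.

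**Figure D3:**
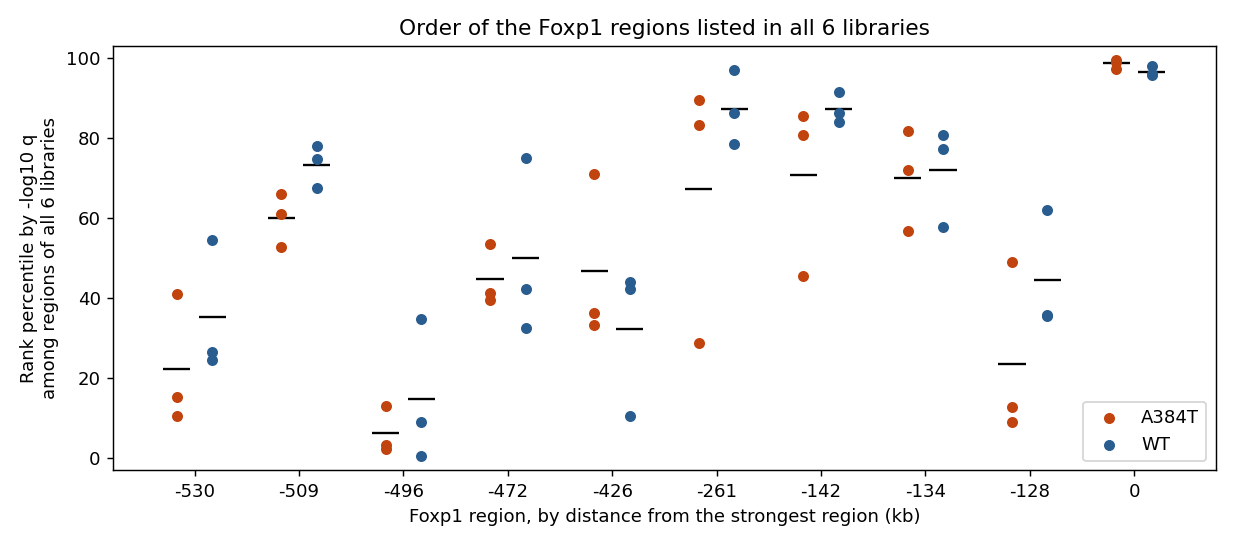
Rank percentile by -log10 q within the 962 regions of all 6 libraries, for the 10 Foxp1 regions among them, placed along the axis by distance from the strongest region (kb, not to scale). Points are libraries and lines are genotype means. The genotypes separate in the region at -509 kb, which starts at 98963359 and had means of 59.9 in A384T and 73.4 in WT, and the strongest region stands at 95.7 or higher in every library.

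Foxp1 regions with a peak in 1 genotype were mostly those of a single long list. Of the 78, 43 (55.1%) had a peak in both genotypes, where 56.0% of all regions did. A384T libraries alone had a peak in 1 region (1.28%; 17.2% of all regions), and WT libraries alone in 34 (43.6%; 26.8% of all regions). Of these 34, 33 had a peak in WT replicate 1 and in no other library, where 25.6% of all regions did. The 33 had folds of 7.60 to 23.6 and a median width of 222 bp. The region of A384T alone, from 99471360 to 99471633, had a fold of 8.85 in A384T replicate 1 and 16.2% of all regions were in that library and no other. Among the 49 bp libraries, which leave out both long lists, 25 of 34 Foxp1 regions had a peak in both genotypes (73.5%; 43.5% of the 7147 regions of these libraries in the whole series). A further 7 had one in A384T and not WT (20.6%; 46.6%), and 2 in WT and not A384T (5.88%; 9.85%). Regions of A384T alone thus outnumbered those of WT alone among these libraries, at Foxp1 as in the whole series. The longest list is then A384T replicate 2 (6657 peaks) and the shortest WT replicate 2 (1746 peaks).

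No Foxp1 region had a peak in at least 2 A384T libraries and in no WT library, a class with 0.763% of all regions. The reverse class, at least 2 WT libraries and no A384T library, held 1 Foxp1 region, where 0.872% of all regions are in it. This region, from 99345706 to 99346123, had folds of 28.3 in WT replicate 1 and 9.83 in WT replicate 3. It lies next to the region from 99344447 to 99345335, which had a peak in all 6 libraries. All 3 A384T libraries had a peak in 11 Foxp1 regions (14.1%; 7.63% of all regions), and all 3 WT libraries in 16 (20.5%; 6.21%). Of the 11 and the 16, 10 had a peak in all 6 libraries. In the whole series 962 of the 1889 regions with all 3 A384T libraries did, and 962 of the 1539 with all 3 WT libraries. Of the 16, 6 lacked a peak in 1 A384T library, which was A384T replicate 3 in each case. Among these 6 is the region from 99006989 to 99007583. Its summits lay at 99007164 and 99007135 in A384T replicates 1 and 2. In WT replicates 1, 2 and 3 they lay at 99007401, 99007374 and 99007399. Summits that separate by genotype were not counted in the whole series, so these positions alone show no shift. In 1 region, from 99351664 to 99352141, all 3 A384T libraries had a peak and WT replicate 2 had none. The missing libraries have the shortest lists, 2050 and 1746 peaks.

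At Foxp1 nearly all regions of the long A384T list had a peak in the long WT list, which held more regions there. Of the 43 regions of A384T replicate 1, 42 (97.7%) had a peak in WT replicate 1, against 76.3% of 17776 regions in the whole series. Of the 77 of WT replicate 1, 42 (54.5%) had a peak in A384T replicate 1, against 66.4% of 20424. No more than 43 of the 77 could have been shared, so this reverse share could not have been much higher. The 2 counts of the whole series lie closer together, so its shares are less bounded. The 42 shared regions stood at a median percentile of 88.4 in the WT replicate 1 list with a median fold of 22.9. The other 35 stood at 37.6 with a median fold of 11.5. In the whole series the shared regions also stood higher, at 64.6 with a median fold of 12.6, against 27.5 and 10.8 for the others. Between the 2 short lists, 10 of the 11 regions of A384T replicate 3 (90.9%) were in WT replicate 2 and 10 of the 19 of WT replicate 2 (52.6%) were in A384T replicate 3. In the whole series these shares were 49.7% and 59.4%. Here too the counts set a bound, as no more than 11 of the 19 could have been shared.

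Foxo1, a FoxO factor needed for Treg function, had fewer FoxP3 peaks than Foxp1, nearly all outside the strongest 1746 of their list. Its window held 6, 3 and 1 peaks in A384T replicates 1, 2 and 3, against 10, 0 and 2 in WT replicates 1, 2 and 3. Of 15517 tiles of 170 kb, 514 (3.31%) held as many as its 10 regions or more, and the median tile held 0. The stretch of equal length before the window had 6, 1 and 1 peaks in A384T replicates 1, 2 and 3 and 5, 0 and 0 in WT replicates 1, 2 and 3. The stretch after it had 4, 2 and 2 in A384T and 7, 0 and 2 in WT, in the same order. Per 10000 listed peaks the window held 3.31, 4.51 and 4.88 in A384T replicates 1, 2 and 3 and 4.83, 0 and 5.12 in WT replicates 1, 2 and 3. The A384T values lie between the WT values, with means of 4.23 ± 0.821 in A384T and 3.32 ± 2.88 in WT (SD, n = 3 each), a difference of 0.915 (two-sided exact permutation test, p = 0.9). The difference turned to -0.743 without WT replicate 2. Within the 49 bp libraries the means were 4.69 in A384T and 2.56 in WT (n = 2 each). Among the 1746 strongest peaks of each library, with ties ordered in the same way, 1 was at Foxo1, in A384T replicate 3. With tied peaks kept there was 1 more, in A384T replicate 1.

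No Foxo1 region had a peak in all 6 libraries (3.88% of all regions), and 6 of 10 had a peak in both genotypes (56.0% of all regions). The region listed most often in A384T, from 52102612 to 52102885, had folds of 24.8, 8.12 and 10.1 in A384T replicates 1, 2 and 3 and 15.3 in WT replicate 1, with no peak in the other WT libraries. It stood at the 82.8, 47.1 and 45.6 percentile of the A384T lists and at 52.3 in WT replicate 1. The region from 52066434 to 52066766 had a peak in 2 libraries of each genotype, with folds of 19.4 and 6.28 in A384T replicates 1 and 2 and 16.1 and 5.50 in WT replicates 1 and 3. The widest, 835 bp from 52071610 to 52072444, had folds of 20.1 and 9.32 in A384T replicates 1 and 2 and 11.8 in WT replicate 1. In all 3 regions replicate 1 had the highest fold of its genotype. The region from 52074588 to 52074844 was the only Foxo1 region with a peak in 2 WT libraries and none of A384T, at folds of 8.54 in WT replicate 1 and 8.46 in WT replicate 3. The class of at least 2 WT libraries and no A384T library holds 0.872% of all regions. The 2 peaks of this Foxo1 region stood at the 26.3 and 8.03 percentile of their lists. A single library, WT replicate 1, had a peak in 3 of the 10 regions (25.6% of all regions are in that library alone), at folds of 8.10 to 12.8. The other 3 had a peak in both replicate 1 libraries and in no other (29.3% of all regions), with folds of 6.50 to 21.2.

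Foxo3, the other FoxO factor of T cells, had 1 strong FoxP3 region. Its window held 3, 2 and 2 peaks in A384T replicates 1, 2 and 3, against 4, 0 and 1 in WT replicates 1, 2 and 3, all within 9.19 kb. Of 14657 tiles of 180 kb, 15.4% held as many as its 4 regions or more. Per 10000 listed peaks the window held 1.65, 3.004 and 9.76 in A384T replicates 1, 2 and 3 and 1.93, 0 and 2.56 in WT replicates 1, 2 and 3. The genotypes overlapped, with means of 4.805 ± 4.34 in A384T and 1.497 ± 1.33 in WT (SD, n = 3 each), a difference of 3.31 (two-sided exact permutation test, p = 0.3). Without A384T replicate 3 the difference was 0.832. The 49 bp libraries had means of 6.38 in A384T and 1.28 in WT (n = 2 each). The difference was 3.82 in equal lists and 3.78 at -log10 q of at least 20 (exact permutation p = 0.6 and 0.4). Peaks with a fold of at least 10 gave a difference of 6.77 (exact permutation p = 0.1, the lowest 3 libraries against 3 can give). At that cut the 1 peak of WT replicate 3, with a fold of 9.25, dropped out. The 2 peaks of A384T replicate 3, with folds of 13.6 and 10.1, both stayed. These 2 peaks lie in 1 region, which every share of A384T replicate 3 here counts as 2. Among equal lists Foxo3 had 1, 1 and 2 peaks in A384T replicates 1, 2 and 3 and 1, 0 and 1 in WT replicates 1, 2 and 3.

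The strong region, chromosome 10 from 41997377 to 41998285, had folds of 23.0, 24.4 and 13.6 in A384T replicates 1, 2 and 3 and of 26.6 and 9.25 in WT replicates 1 and 3, with no peak in WT replicate 2. By -log10 q it stood in place 165, 166 and 256 of the A384T lists, at the 99.1, 97.5 and 87.6 percentile. In WT replicates 1 and 3 it stood in places 349 and 1556, at the 98.3 and 60.1 percentile. It was thus near the top of 4 lists, in the middle of that of WT replicate 3 and missing from the shortest. A384T replicate 3 called it as 2 peaks and each other library that listed it as 1. The best peak had its summit at 41997633, 41997660 and 41997652 in A384T replicates 1, 2 and 3. In WT replicates 1 and 3 it lay at 41998053 and 41998039. The second peak of A384T replicate 3 had its summit at 41998023, with a fold of 10.1 and a percentile of 74.3. The folds and places of the genotypes thus belong to different summits within the region. The peak of WT replicate 1, 870 bp wide, spans both positions. How often summits separate by genotype in the whole series was not counted, so these positions alone show no shift. Its neighbour, from 41996303 to 41996872, had folds of 16.9 and 6.79 in A384T replicates 1 and 2 and 11.3 in WT replicate 1. The remaining 2 regions were weak. The one from 41995324 to 41995706 had folds of 9.08 in A384T replicate 1 and 7.38 in WT replicate 1, and the one from 41989092 to 41989288 a fold of 8.11 in WT replicate 1.

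**Figure D4:**
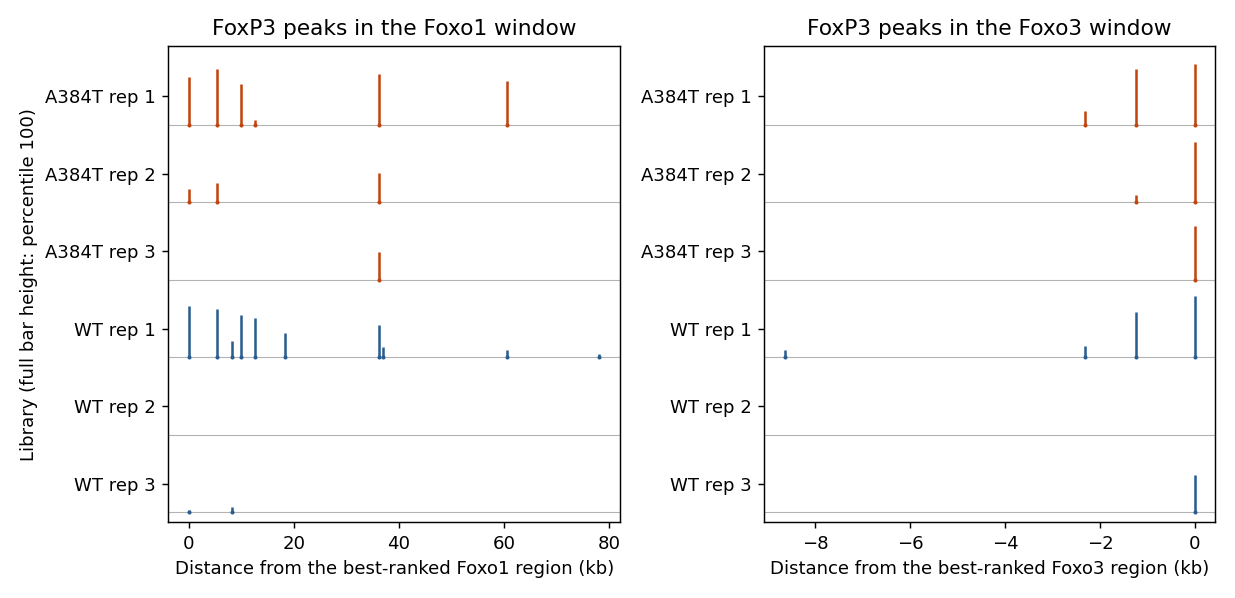
Regions with a peak in each library in the Foxo1 window (left) and the Foxo3 window (right), placed by distance (kb) from the best-ranked region found in at least 2 libraries of each genotype. Bar height is the percentile of the peak by -log10 q within its own list, from 0 to 100. WT replicate 2 has no bar at either gene, and at Foxo3 the bars at 0 kb stand at 87.6 or higher in the 3 A384T libraries and at 98.3 and 60.1 in WT replicates 1 and 3.

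Across the 3 genes Foxp1 had the most peaks in each of the 6 libraries. Foxo3 had more peaks than Foxo1 in A384T replicate 3 alone, where 2 peaks of 1 region stood against 1 Foxo1 peak. The windows differ in length, 750, 170 and 180 kb. Per Mb of window, Foxp1 had 57.3, 48.0 and 16.0 peaks in A384T replicates 1, 2 and 3 and 102.7, 28 and 34.7 in WT replicates 1, 2 and 3. Foxo1 had 35.3, 17.6 and 5.88 in A384T replicates 1, 2 and 3 and 58.8, 0 and 11.8 in WT replicates 1, 2 and 3. Foxo3 had 16.7, 11.1 and 11.1 in A384T replicates 1, 2 and 3 and 22.2, 0 and 5.56 in WT replicates 1, 2 and 3. The density was thus highest at Foxp1 in every library.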

How the data were processed

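Genome-wide FoxP3 binding was mapped by ChIP-seq, with cells fixed in 1% formaldehyde for 30 min and a rabbit polyclonal antibody used at 4 µg per reaction, per the labels' protocols. Bowtie2, MACS2 and mm9 are named in the submitters' processing notes. Per the file headers, peaks were called on each library with MACS 2.1.0.20140616 against 1 control library at a q-value cutoff of 1e-10, keeping 1 tag per position. The deposited lists give the pileup at the summit (a signal), a ratio of the ChIP signal to its local background (fold enrichment) and the -log10 p-value and q-value of each peak. A redundant share of 30% in A384T replicate 1, 39% in WT replicate 1 and 18 to 21% in the others was removed, per the file headers.

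Unplaced sequences were left out, and overlapping peaks joined into regions as described. Shares of listed peaks were compared by exact permutation over the 20 assignments of 6 libraries to 3 and 3. Tiles, flanks and ranks are descriptions. Regions named are those in all 6 libraries, in at least 2 libraries of 1 genotype and none of the other, and the best-ranked per window; others were picked with their values in view. The 3 genes, windows and lists were chosen with earlier results of these data known. The joining and ranking were tested on simulated data with evenly spaced sites, no missed peaks and lists of similar length. That does not test them on lists as unequal as those here. RefSeq symbols of all 3 genes matched. Alternatives are given in the closing section. Tools were Python 3.11.15 with scipy 1.17.1, pandas 2.3.3, numpy 2.4.6 and matplotlib 3.10.9.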

Additional observations from a re-analysis of the deposited data

How the results depend on the processing

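Of 86 alternatives to 7 results, 71 left the direction or a count within 1.5 times, 14 moved a count and 1 reversed a difference. A difference was judged by its sign alone, so one that shrank still counted among the 71. So did the replicate block, which cannot change a difference, and counts of 0 that stayed 0. At Foxp1 the difference of -29.2 per 10000 peaks ranged from -48.0 to -6.43 over the libraries left out in turn, at Foxo3 the 3.31 ranged from 0.832 to 4.88, and at Foxo1 the 0.915 ranged from -0.743 (without WT replicate 2) to 1.82. The Foxo1 difference was 1.91 in equal lists, 3.81 in these with tied peaks kept, 2.61 with a fold of at least 10 and 3.46 at -log10 q of at least 20. With the replicate block the p-values were 0.25, 1.0 and 0.5 for differences of -29.2, 0.915 and 3.31 at Foxp1, Foxo1 and Foxo3. The replicate numbers did not meet the set limit for pairing: deviations in equal lists correlated by 0.165, 0.0933 and 0.112 for replicates 1, 2 and 3, where every library correlated best with its own number. In full lists these were -0.188, -0.235 and -0.1498, the lowest of each A384T library. The 52 regions of the 3 windows with a peak in both genotypes (56.5% of 92; 56.0% in the whole series) became 14 in equal lists (56.0% of 25; 45.0%), 28 among the 49 bp libraries (63.6% of 44; 42.6%) and 28 to 52 with a library left out, the lowest without WT replicate 1 (28 of 56 regions; 19.1% in the whole series). The 0 regions of at least 2 A384T libraries and no WT library (0.763% in the whole series) became 2 with summits within 200 bp (2.0% of 100, against 1.15%). These 2 are parts of the strong Foxo3 region and of the Foxp1 region from 99006989 to 99007583. The class held 1 region with a fold of at least 10 (1.37% of 73, against 2.29%) and 1 among the 49 bp libraries (2.27% of 44, against 6.54%). With a library left out it held 0 to 9, the highest without WT replicate 1 (16.1% of 56, against 16.5% in the whole series). The 2 regions of the reverse class (2.17% of 92, against 0.872%) became 0 at -log10 q of at least 20 (0.597% in the whole series). The class held 1 region with a fold of at least 10 (1.37%, against 1.13%) and 0 among the 49 bp libraries (0.387% in the whole series). It held 3 with summits within 200 bp (3.0%, against 0.923%) and 3 in equal lists (12.0%, against 9.08%). With a library left out it held 0 to 3, the highest without A384T replicate 1 (3.3%, against 3.03%). It was 0 without WT replicate 1 or WT replicate 3 (0.016% and 0.0243% in the whole series). With a library left out, such counts need a peak in 2 of 2 libraries, or in neither of 2, of the reduced genotype. Equal or filtered lists hold fewer peaks by construction. The 1 region with ranks that did not overlap became 3 by fold and 3 inside equal lists; the cause was not tested. The use of 49 bp libraries for region counts and the keeping of tied peaks were chosen after the data were seen.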
